A study of Mus musculus with 4 samples.

Results

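The telomere-proximal ends of the mouse autosomes were examined in Hi-C data from Stag2 wildtype and Stag2 knock-out haematopoietic progenitors. An end was the stretch of 10 Mb before the last bin of a chromosome that had an insulation score in all 4 libraries. The 19 autosomes gave 19 ends with 9054 scored bins of 20 kb, out of 113399 scored bins on the autosomes and 117252 in the whole table. These bins were chosen by position among the bins scored in all 4 libraries, and no difference between genotypes entered that rule. The choice of the ends was nevertheless made with earlier results of these data known. The cells were bone marrow cells depleted of those with lineage markers, and each genotype had 2 libraries made with the Hi-C 2.0 protocol and the enzyme DpnII. Hi-C ligates DNA ends that lie near each other in the nucleus and counts the ligated pairs. Both genotypes carried the same label for cell type and differed in the label for genotype. Insulation scores hold no expression level, so neither the loss of Stag2 nor the cell type could be checked in them. The sources used here do not give the strain, age or sex of the animals, how the gene was removed, or whether libraries of one genotype are from different animals. The p-values therefore measure only how far these 4 libraries spread, and that spread may be technical.

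Mouse chromosomes are telocentric, so the coordinates of an autosome begin at the centromere and the high-coordinate end carries the free telomere. Telomeres are arrays of a short repeat bound by the shelterin complex, and the sequence just inside them is often rich in genes and in recently duplicated gene families. Cohesin is a ring-shaped complex that extrudes chromatin loops until it meets CTCF, and it holds either STAG1 or STAG2 as one of its subunits. In human cells STAG1 is known for cohesion at telomeres and STAG2 for cohesion at centromeres. The insulation score measures how many contacts span a position relative to its neighbourhood, and it is low where few contacts span it. The compartment eigenvector divides a chromosome into a positive class, which usually holds active and gene-rich chromatin, and a negative class, which usually holds inactive chromatin. The sign was used here as deposited.

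The telomeric repeats themselves were not measured. The last scored bin ended between 482 and 500 kb before the end of the last listed bin on 18 of the 19 autosomes, and 792 kb before it on chromosome 18. Of the 9500 listed bins in the ends, 446 lacked a score in at least 1 library and 324 lacked one in every library. These unscored bins lay in 5 ends, with 176 on chromosome 2, 102 on chromosome 4, 79 on chromosome 5, 68 on chromosome 12 and 21 on chromosome 14. The other 14 ends had a score in 500 of 500 bins. The ends had 9172 and 9092 scored bins in wildtype, against 9102 and 9059 in knock-out. Sequencing depth was unknown, so no counting interval was computed.

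The ends were richer in the positive compartment than the rest of the autosomes, and their scores were higher in all 4 libraries. The wildtype eigenvector was positive in 62.7% of the end bins and in 47.7% of the other autosomal bins. The positive share of the end exceeded that of the rest of its chromosome on 14 of 19 autosomes. It ranged from 29% on chromosome 3 to 94.4% on chromosome 8. Bins of the ends averaged 0.121 and 0.125 in wildtype, against 0.145 and 0.134 in knock-out. The rest of the autosomes averaged -0.0801 and -0.0821 in wildtype, against -0.0888 and -0.0922 in knock-out. The ends thus lay above the rest in both genotypes, and the wildtype level of the end exceeded that of the rest on 19 of 19 autosomes. Within the positive class the wildtype level of the end exceeded that of the rest on 14 autosomes, and within the negative class on 16.

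Levels were highest at the tip. In the last 1 Mb before the last scored bin, positive bins averaged 0.402 ± 8.7e-05 in wildtype, against 0.450 ± 0.00419 in knock-out (SD, n = 2). Positive bins from 5 to 10 Mb averaged 0.140 ± 0.00478 in wildtype, against 0.181 ± 0.00872 in knock-out (SD, n = 2). Negative bins averaged 0.279 ± 0.0214 in wildtype in the last 1 Mb and -0.110 ± 0.00107 from 5 to 10 Mb (SD, n = 2). These levels pool the bins of all ends, and the last 1 Mb held positive bins on 14 chromosomes and negative bins on 11. The last scored bin ended at least 482 kb before the last listed bin. Any part that nearness to the chromosome end has in these levels was not tested.

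**Figure D1:**
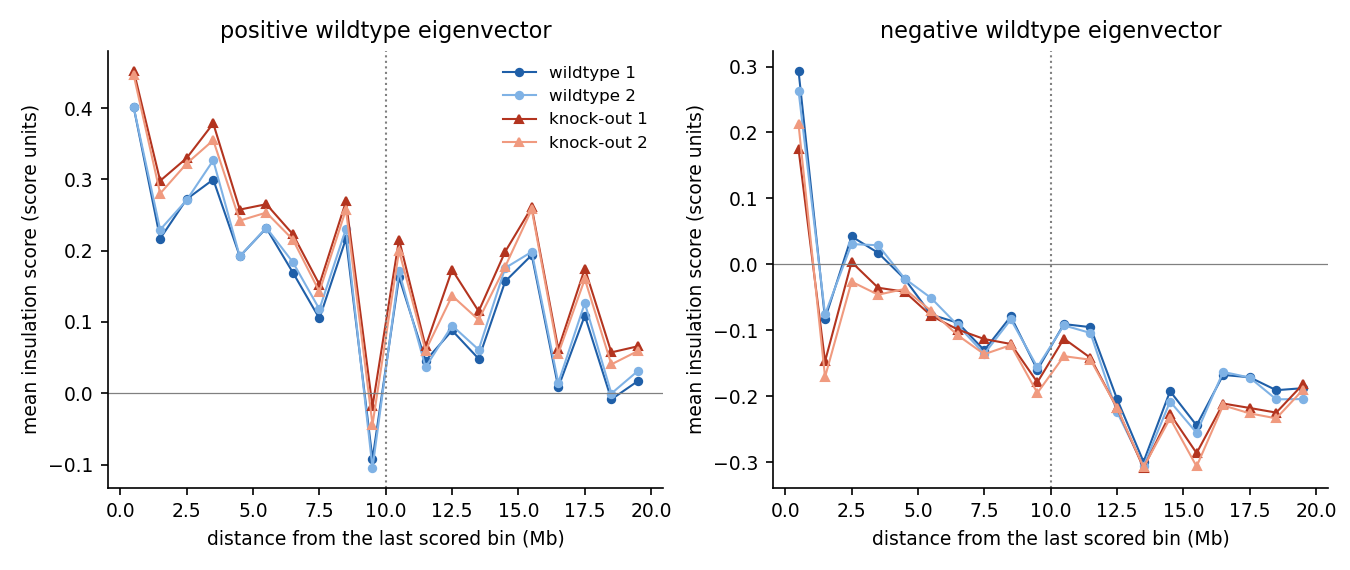
Mean insulation score (score units) of each library in steps of 1 Mb from the last scored bin, pooled over the autosomes, for bins with a positive (left) and a negative (right) wildtype eigenvector; the dotted line marks 10 Mb. Both knock-out libraries lie above both wildtype libraries in every step of the positive class, whereas in the negative class within 10 Mb they lie below both, except for overlaps at 5 to 6 and 7 to 8 Mb.

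Knock-out scores were higher than wildtype scores in the positive bins of the ends and lower in the negative bins. Positive end bins averaged 0.209 and 0.216 in wildtype, against 0.268 and 0.255 in knock-out. Negative end bins averaged -0.0258 and -0.0284 in wildtype, against -0.0628 and -0.0683 in knock-out. In neither class did the genotypes overlap, and the differences were 0.0490 and -0.0385. Limma's test per bin, fitted over all 117252 bins with Benjamini-Hochberg adjustment at 0.05, called 22.4% of all bins, 11.2% higher and 11.2% lower in knock-out. In the ends it called 1529 bins (16.9%) higher and 750 (8.28%) lower, with median differences of 0.144 and -0.155. The standard error of a bin's difference had a median of 0.0365. Without wildtype replicate 1 these shares fell to 5.50% and 2.62%, and without wildtype replicate 2 to 6.99% and 2.19%. When a running mean over 51 bins was first taken off each library, limma called 0 of the 9054 end bins, with 1624 (17.9%) at an unadjusted p below 0.05 against 18.7% of all bins.

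Pooled over ends, rises were more frequent in the positive bins of the ends than in positive bins elsewhere. Negative bins were called at nearly the same rates. Of all positive bins of the genome 23.3% were called, and of all negative bins 21.5%. Of 5678 positive end bins, 24.3% rose and 2.78% fell, against 18.5% and 4.81% of all positive bins of the genome and 18.3% and 4.92% in the rest of the autosomes. Of 3359 negative end bins, 4.26% rose and 17.6% fell, against 4.02% and 17.5% of all negative bins. Whichever library was left out, the share of positive bins that rose was higher in the ends than in the rest. It was 7.996% against 6.60% without wildtype replicate 1 and 10.1% against 7.99% without wildtype replicate 2. It reached 22.1% against 17.9% without knock-out replicate 1 and, with knock-out replicate 2 left out, 26.6% against 20.3%. Neighbouring bins vary together, so these shares carry no test of their own. By chromosome, the mean difference of positive bins lay above that of the same-sign rest in 11 ends and below it in 8.

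The test of the difference between end and rest used 1 value per library, the mean over chromosomes of the end level minus the level of the same-sign rest. For positive bins this was 0.112 and 0.112 in wildtype, against 0.125 and 0.115 in knock-out, a difference of 0.00816. Both knock-out libraries lay above both wildtype libraries, but knock-out replicate 2 by only a small margin, and without knock-out replicate 1 the difference was 0.00344. For negative bins the values were 0.136 and 0.143 in wildtype, against 0.156 and 0.147 in knock-out, a difference of 0.0119, which was 0.00767 without knock-out replicate 1. With each library divided by its genome-wide SD the genotypes overlapped for both signs. The differences were then 0.00510 SD units (exact permutation p of 1) and 0.0101 SD units (exact permutation p of 0.667). When the rest was reweighted to the eigenvector quintiles of the end, the negative difference was -0.00821 with overlapping genotypes, while the positive difference was 0.0108. Both signs had p = 0.33 in the two-sided exact permutation test, the smallest that 2 against 2 libraries can give. With every chromosome weighted equally, positive bins differed between genotypes by 0.0413 in the ends and 0.0331 in the rest, and negative bins by -0.0351 and -0.0470.

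Taken over both signs, the ends differed by 0.0165 and the rest by -0.00942 among bins with a sign. Of the 0.0259 between them, 47.2% followed from the larger share of positive bins in the ends, with the rest's own difference for each sign held fixed. The remaining 0.0137 lay within signs. The gap between the positive and negative classes was wider in knock-out at the ends too. Positive minus negative bins came to 0.273 and 0.281 in wildtype, against 0.356 and 0.351 in knock-out, higher in both knock-out libraries than in both wildtype libraries in 17 of 19 ends. In the rest of the chromosomes the gap was 0.305 ± 0.0104 in wildtype, against 0.385 ± 0.00314 in knock-out (SD, n = 2).

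The 19 ends did not move together. Window means were fitted with limma over 257 windows of 10 Mb counted back from the last scored bin of each chromosome. Of all windows, 61.5% were called, 24.9% higher and 36.6% lower in knock-out. Of the 19 end windows, 10 were called, 7 higher and 3 lower, and 3 were called without wildtype replicate 1 and 5 without wildtype replicate 2. The end windows called higher were those of chromosomes 7, 8, 9, 11, 12, 15 and 16, and those called lower were 10, 17 and 19. Both knock-out libraries lay above both wildtype libraries in 8 ends and below both in 5, against 33.1% and 44.7% of all windows, and the genotypes overlapped in 6. Differences of the ends ran from -0.0459 to 0.0774 with a median of 0.0167, against a median of -0.00578 over all windows. The rest of the chromosome differed by a positive amount on 1 of 19 autosomes. The mean difference over a whole autosome lay between -0.0112 and 0.00243, so the end and the rest of a chromosome are tied to each other and their values are not independent.

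**Figure D2:**
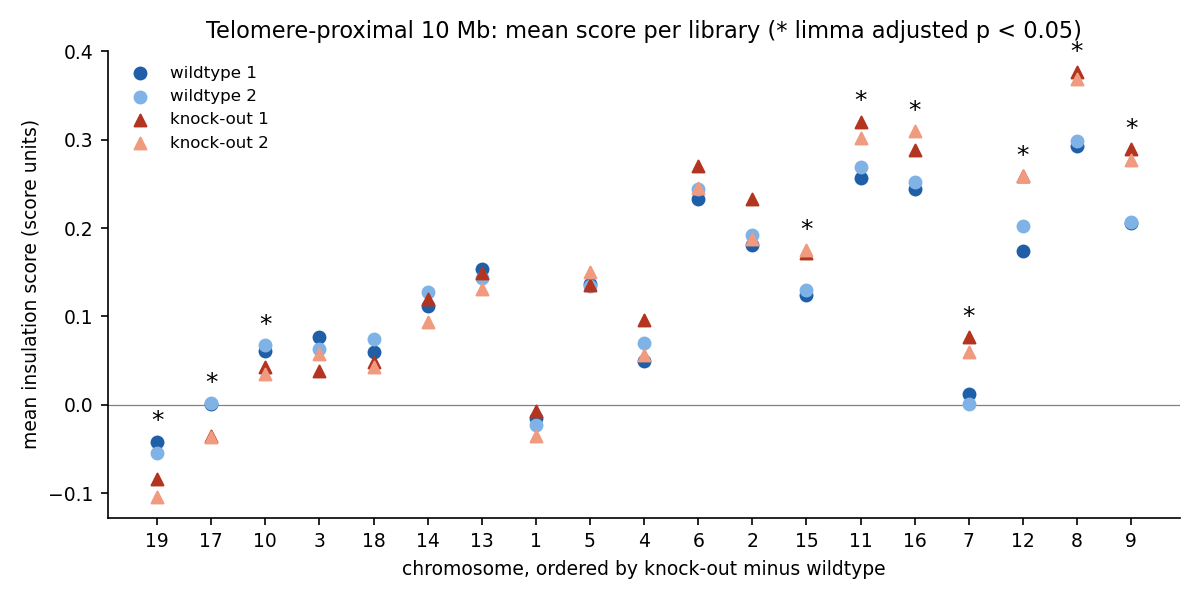
Mean insulation score (score units) of the telomere-proximal 10 Mb in each library, with circles for wildtype and triangles for knock-out, for 19 autosomes ordered by knock-out minus wildtype; an asterisk marks an adjusted p below 0.05 in the fit over all 10 Mb windows. The called ends sit at both sides of the plot, 3 with lower and 7 with higher knock-out scores.

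The end of chromosome 9 had the largest rise. Its 500 bins averaged 0.205 and 0.206 in wildtype, against 0.290 and 0.277 in knock-out. Knock-out was higher by 0.0774 ± 0.0130 (limma's SE) with an adjusted p of 0.000109. The 37.2% of its bins called higher stood against 0 bins called lower. Knock-out was higher in both classes, by 0.0869 in 409 positive bins and 0.0388 in 81 negative bins.

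On chromosome 8 the end averaged 0.293 and 0.299 in wildtype, against 0.377 and 0.369 in knock-out, with no overlap. The rise of 0.0767 ± 0.0145 (limma's SE) had an adjusted p of 0.000277. This was the end with the largest positive share, and its 28 negative bins lay far below the others, at -0.921 in wildtype. Those negative bins were lower in knock-out, at -0.963 and -1.002 against -0.913 and -0.929, and its 472 positive bins were higher by 0.0849.

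The end of chromosome 12 averaged 0.174 and 0.202 in wildtype, against 0.258 and 0.259 in knock-out. Its rise of 0.0705 ± 0.0133 (limma's SE) had an adjusted p of 0.000277, which was 0.0539 without wildtype replicate 1. The immunoglobulin heavy-chain locus, which is rearranged in B cells, is known to lie near this chromosome end, but it was not placed in these bins. The 148 negative bins of the whole end were also higher, at 0.104 and 0.117 in wildtype, against 0.168 and 0.164 in knock-out.

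Among falling ends, chromosome 19 had the largest difference. It averaged -0.0416 and -0.0544 in wildtype, against -0.0840 and -0.104 in knock-out, a fall of 0.0459 ± 0.0105 (limma's SE) with an adjusted p of 0.00135. Without wildtype replicate 1 the adjusted p was 0.0966. The outermost protein-coding gene of chromosome 19 in the gene order of GRCm38 is Csf2ra. It encodes a subunit of the receptor for the growth factor GM-CSF. No coordinate of that build was used here, so whether the gene lies among the scored bins was not determined. Negative bins of this end were lower by 0.0846 and positive bins by 0.0110, and positive bins overlapped between genotypes.

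Chromosome 17 showed the tightest libraries among the falling ends. Wildtype averaged 0.00143 and 0.00226 and knock-out -0.0356 and -0.0367, a fall of 0.0380 ± 0.00993 (limma's SE) with an adjusted p of 0.00385. That p was 0.0939 without wildtype replicate 1 and 0.0866 without wildtype replicate 2. The end had a positive eigenvector in 34.2% of its bins. On chromosome 10 the end averaged 0.0607 and 0.0675 in wildtype, against 0.0422 and 0.0350 in knock-out. Its fall of 0.0255 ± 0.0106 (limma's SE) had an adjusted p of 0.0448. That call was lost without wildtype replicate 1, without wildtype replicate 2 and without knock-out replicate 2, at adjusted p of 0.210, 0.316 and 0.0533.

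The rises of chromosomes 7, 8 and 9 passed in each of the 4 fits that left out 1 library. Chromosome 7 averaged 0.0124 and 0.00104 in wildtype, against 0.0765 and 0.0595 in knock-out, a rise of 0.0613 ± 0.0109 (limma's SE) with an adjusted p of 0.000179. Chromosomes 11, 15 and 16 rose by 0.0478, 0.0465 and 0.0506 over all libraries. None of these 3 passed without wildtype replicate 1 or without wildtype replicate 2. The 9 ends that did not pass differed by -0.0220 (chromosome 3) to 0.0238 (chromosome 2). The ends of chromosomes 3 and 18 had both knock-out libraries below both wildtype libraries, and chromosome 6 had both above.

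Across the 19 ends, the difference between genotypes was larger with a larger share of positive bins, with Pearson's r of 0.784 and Spearman's rho of 0.779. These are descriptions across chromosome ends of the same 4 libraries. A whole-end difference averages positive bins, at 0.0490 pooled over ends, and negative bins, at -0.0385. It therefore depends on the positive share itself, and the part of that in r was not computed. The order of the ends repeated between library pairs without a shared library. Differences between the libraries numbered 1 and between those numbered 2 had r = 0.841 over the 19 ends, and the crossed pairs had r = 0.888. Differences of positive and of negative bins of an end were hardly related, with r = 0.127 and rho = 0.0667.

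**Figure D3:**
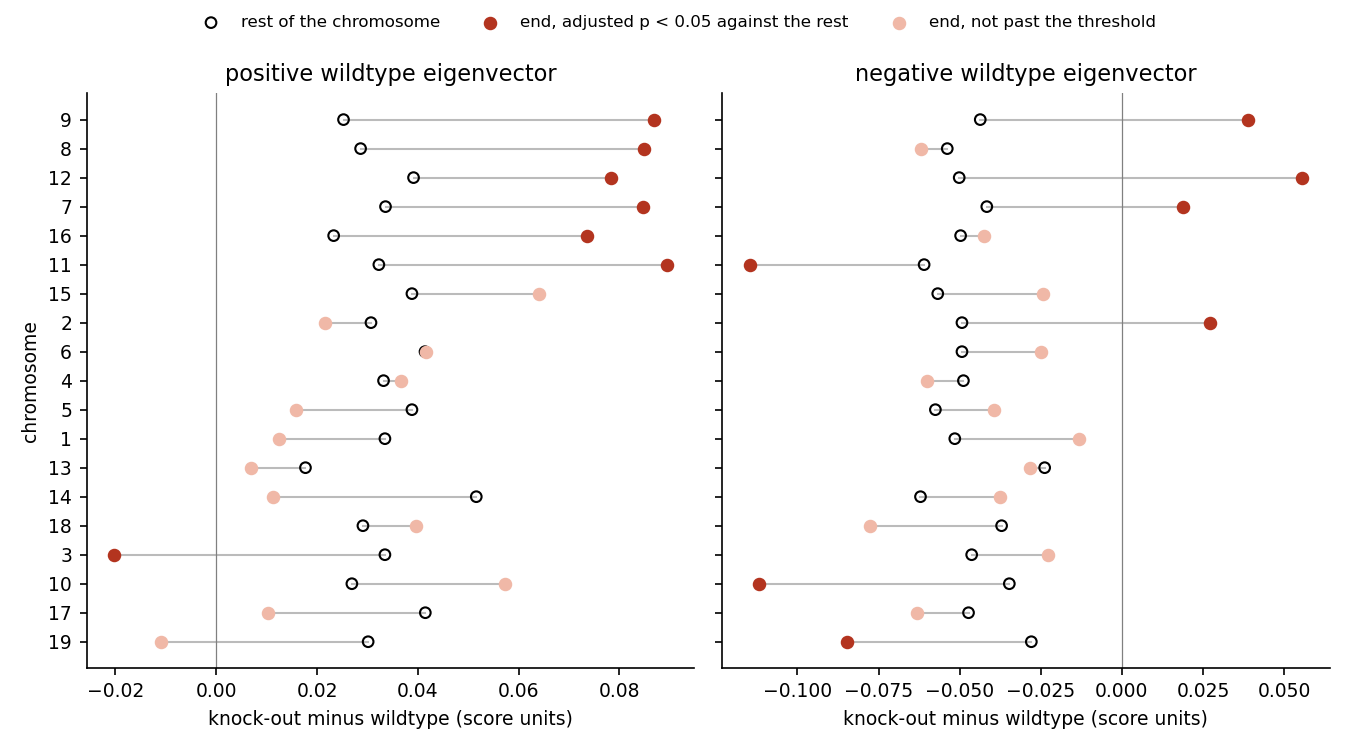
Knock-out minus wildtype (score units) of the end (filled circles) and of the rest of the same chromosome (open circles), for bins with a positive (left) and a negative (right) wildtype eigenvector, with chromosomes in the order of the whole end difference. Dark circles mark ends that differ from the same-sign rest at an adjusted p below 0.05, 7 in each panel.

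A rest averages many more bins than an end, so its values vary less. Against windows of equal size, the whole-end differences did not vary more, with an SD of 0.0400 over the 19 ends and 0.0473 over 224 other windows of 10 Mb. In positive bins the difference ran from -0.0202 to 0.0894 over the ends and from 0.0177 to 0.0516 over the rests. In negative bins it ran from -0.115 to 0.0556 over the ends and from -0.0621 to -0.0238 over the rests. Positive bins were higher in knock-out in 17 of 19 ends, with no overlap of the libraries in 12, and in 19 of 19 rests. Negative bins were lower in 15 of 19 ends, with no overlap in 14, and in 19 of 19 rests.

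Limma was also run on the end mean minus the mean of the same-sign rest, over 509 windows by sign, of which 38.9% were called, 19.6% above and 19.3% below. Of 38 end windows, 14 were called, a share close to that background. There were 4 calls without wildtype replicate 1, 4 without wildtype replicate 2 and 9 without knock-out replicate 1. Among positive bins the ends of chromosomes 7, 8, 9, 11, 12 and 16 moved above their rest and that of chromosome 3 moved below it. The end of chromosome 3 had positive bins at 0.0486 and 0.0339 in wildtype, against 0.0188 and 0.0232 in knock-out, lower by 0.0202, where its rest was higher by 0.0335. The test of that difference gave an adjusted p of 0.0146.

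Among negative bins, 4 ends moved above their rest and 3 below. The end of chromosome 12 stood 0.106 ± 0.01497 (limma's SE) above its rest with an adjusted p of 0.00365, and that of chromosome 9 stood 0.0824 ± 0.0114 above with an adjusted p of 0.00364. Chromosomes 2 and 7 also lay above, by 0.0766 and 0.0606. Their ends themselves differed by only 0.0273 and 0.0190, with overlapping genotypes, and their rests by -0.0493 and -0.0416. Chromosomes 10, 11 and 19 lay below their rests, with differences of -0.0771, -0.0538 and -0.0567. Negative bins of the chromosome 11 end averaged 0.0710 and 0.0827 in wildtype, against -0.0329 and -0.0429 in knock-out, the largest difference downward among the ends, while its positive bins were higher by 0.0894. The differences of negative bins on chromosomes 9, 10 and 12 passed in each of the 4 fits that left out 1 library. For positive bins no end did so.

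The last 5 Mb and the stretch from 5 to 10 Mb were compared on the chromosomes that had bins of the sign in both. In 13 ends with negative bins in both stretches, the last 5 Mb differed by -0.0253 and the stretch from 5 to 10 Mb by 0.00531. The change of that contrast was -0.0306, and it lay between -0.0448 and -0.0164 over the 4 pairs of libraries. Its p was 0.33 in the two-sided exact permutation test, and the contrast was lower in knock-out on 8 of 13 chromosomes. In the last 1 Mb, negative bins of 10 of 11 ends were lower in knock-out, with levels of 0.331 and 0.305 in wildtype, against 0.218 and 0.256 in knock-out. From 1 to 10 Mb they were also lower in 10 of these 11 ends, with a mean difference of -0.0292 beside -0.0811 in the last 1 Mb. Pooled over ends, 32.1% of the 411 negative bins of the last 1 Mb fell. From 5 to 10 Mb 9.86% of the 1774 negative bins fell, beside 17.5% of all negative bins of the genome. The last 1 Mb thus lay above the share of the genome, and the stretch from 5 to 10 Mb lay below it. Positive bins differed by 0.0454 in the last 5 Mb and 0.0355 from 5 to 10 Mb over 18 ends. With the split at 1 Mb the order was the other way over 14 ends, at 0.0325 in the last 1 Mb and 0.0528 from 1 to 10 Mb. That contrast was lower in knock-out on 11 of 14 chromosomes, and the genotypes did not overlap.

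**Figure D4:**
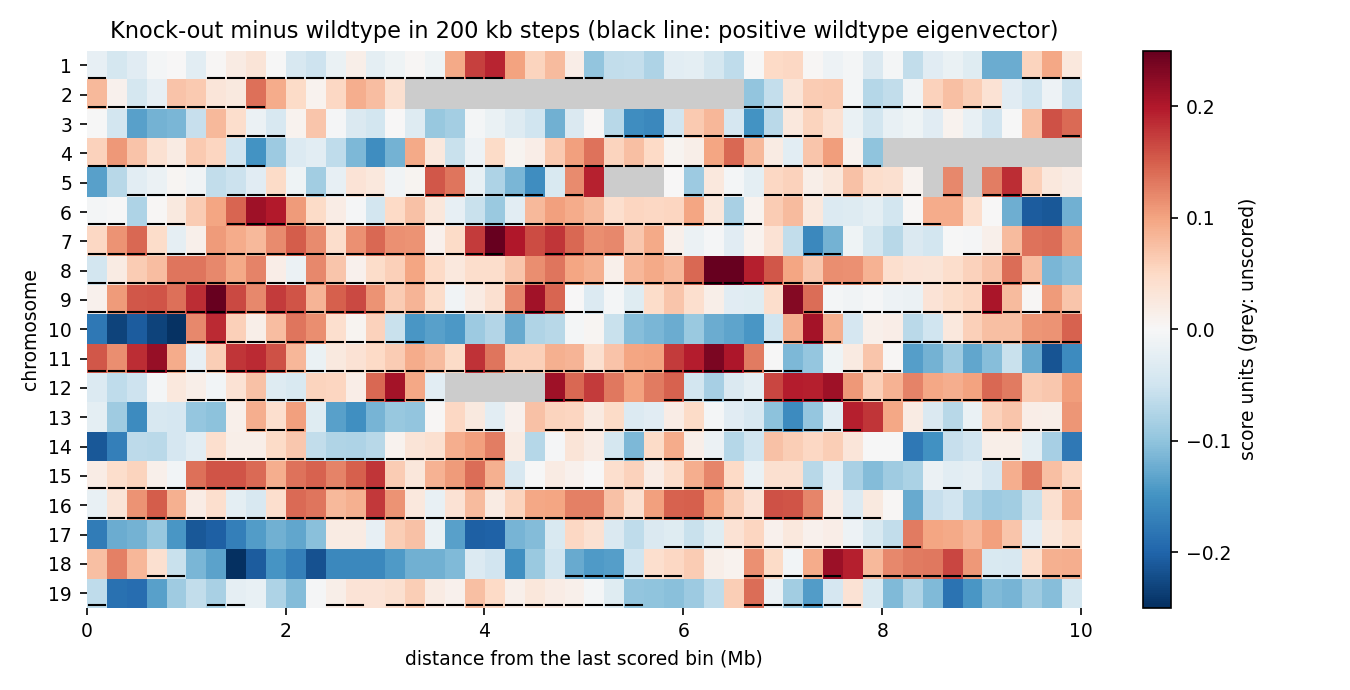
Knock-out minus wildtype (colour, score units) in steps of 200 kb from the last scored bin (left) to 10 Mb (right) for each autosome, with a black line under steps with a positive wildtype eigenvector and grey where no bin was scored. Chromosome 8 is red along most of its length, whereas chromosomes 10, 11 and 18 each hold long red and long blue runs.

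The centromere-proximal 10 Mb, the other end of the same chromosomes, held 8698 scored bins and served as the closest comparison. Its levels were also high, at 0.311 ± 0.0166 in positive bins of wildtype with chromosomes weighted equally (SD, n = 2). With that weighting the genotypes differed little in positive bins there, by 0.00330, and they overlapped. Libraries were at 0.299 and 0.323 in wildtype, against 0.320 and 0.308 in knock-out. Pooled over bins the difference was 0.0146. Of these bins 14.4% were called higher and 8.30% lower, against 18.5% and 4.81% of all positive bins of the genome. The telomere-proximal end minus the centromere-proximal end of a chromosome was -0.113 and -0.130 in wildtype, against -0.0813 and -0.0849 in knock-out, a difference of 0.0380. It was higher in knock-out on 16 of 19 autosomes, and the two-sided exact permutation p was 0.33, the smallest possible. In negative bins the same contrast differed by -0.00163, and the genotypes overlapped. The contrast in positive bins took in a change of the centromere-proximal end against its own same-sign rest. That change was -0.0325, beside 0.00816 for the telomere-proximal end against its rest.

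Called bins of the same direction within 50 kb of each other were joined into regions. The ends held 90 higher and 55 lower regions of at least 3 called bins, where 25.2% of end bins and 22.4% of all bins were called. Regions outside the ends are not given here, so these counts do not set the ends apart. Higher regions were present in 19 of 19 ends and lower ones in 15. Median lengths were 260 kb for higher and 200 kb for lower regions, and the greatest lengths 2000 kb and 1340 kb. The wildtype eigenvector was positive in 76 of 90 higher regions and in 13 of 55 lower regions, beside 62.7% of all end bins. For each direction the 5 regions that changed most on average are described, with means over called bins. These were chosen by size, so they are larger on average than a repeat would give.

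Among higher regions the largest change lay on chromosome 9 from 116280001 to 116580000 (mm9), 7000 kb before the last scored bin. Its 15 called bins were at -0.379 and -0.374 in wildtype, against -0.124 and -0.166 in knock-out, a rise of 0.231 with adjusted p up to 0.0260. The mean eigenvector there was -0.00058 in wildtype and -0.00221 in knock-out, but it averaged bins of opposite sign. In steps of 200 kb over this stretch the wildtype eigenvector was 0.0272 and, nearer the tip, -0.0216. On chromosome 18 from 82200001 to 82640000, 22 called bins rose from -0.353 and -0.341 to -0.165 and -0.121, and 10 of them passed without wildtype replicate 1 and 13 without wildtype replicate 2. The widest of the 5, on chromosome 8 from 124160001 to 125220000, had 53 called bins that rose from 0.428 and 0.453 to 0.649 and 0.626. Its rise of 0.197 was 0.0218 once each library's running mean over 51 bins had been taken off. A short region of chromosome 8 from 121820001 to 121900000 lay in a deep minimum, at -1.46 and -1.43 in wildtype, against -1.20 and -1.28 in knock-out. None of its 4 bins passed without wildtype replicate 1, wildtype replicate 2 or knock-out replicate 1.

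The tip of chromosome 10 held a rise and falls side by side. From 128040001 to 128380000, 16 called bins rose from -0.210 and -0.118 in wildtype to 0.0521 and 0.00755 in knock-out, and 3 of them passed without wildtype replicate 1. Toward the tip, 4 called bins from 128500001 to 128620000 fell from -1.12 and -1.25 to -1.45 and -1.50, the largest fall in the ends at -0.289. None of these 4 passed without wildtype replicate 1, where the difference was -0.221. From 128680001 to the last scored bin at 129500000, 38 called bins fell from 0.322 and 0.244 to 0.0448 and 0.0889, and 14 of them passed without wildtype replicate 1. The step between the rise and the falls coincided with a change of the eigenvector from 0.0424 to -0.0217 and -0.0441 in wildtype. The 3 outermost protein-coding genes of chromosome 10 in the gene order of GRCm38 are Vmn2r87, Vmn2r86 and Vmn2r85, members of a family of vomeronasal receptors. Whether these genes lie in the falling regions or past the last scored bin was not determined.

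**Figure D5:**
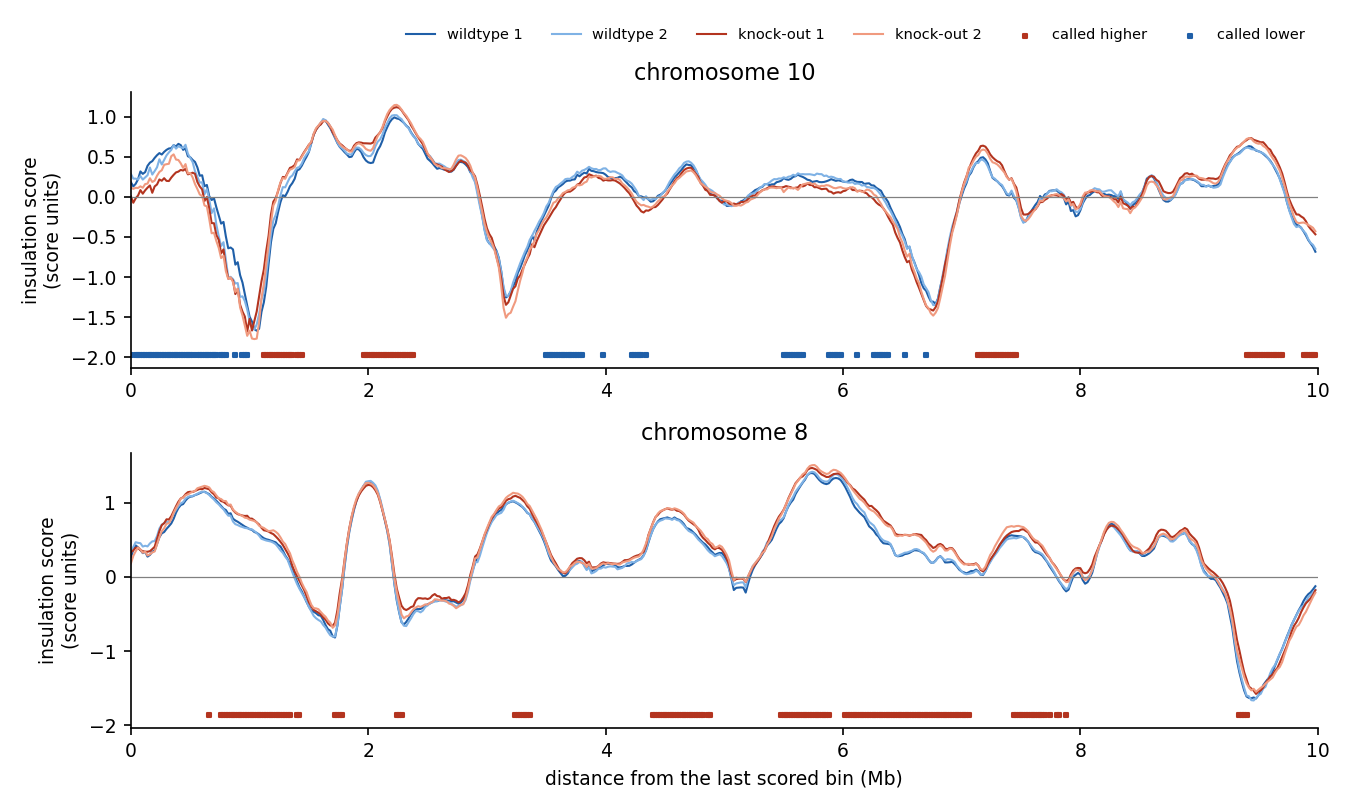
Insulation score (score units) of the 4 libraries along the last 10 Mb of chromosome 10 (top) and chromosome 8 (bottom), against distance from the last scored bin, with called bins as squares under the curves. On chromosome 10 called falls lie in the last 1 Mb next to a called rise, and on chromosome 8 all called bins are rises.

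The other lower regions lay on 3 chromosomes. On chromosome 14 from 124460001 to 124700000, at the last scored bin, 12 called bins fell from 0.640 and 0.728 to 0.474 and 0.484, with 19 unscored bins in or within 200 kb of the region and 6 called bins without wildtype replicate 2. On chromosome 6 from 139120001 to 139720000, 29 called bins fell from -0.0381 and -0.00475 to -0.167 and -0.260, and 5 of them passed without wildtype replicate 2. On chromosome 18 from 87340001 to 88680000, 67 called bins fell from 0.177 and 0.188 to 0.00432 and -0.0224. That region was the longest lower one of all ends, and its difference of -0.192 was -0.0139 with the running mean taken off. Of its 67 called bins, 36 passed without wildtype replicate 1 and 35 without wildtype replicate 2. The 10 kb profiles, 1 per genotype and without replicates, changed in the same direction in the 10 regions named here, by -0.1401 to -0.217 in lower regions and 0.172 to 0.236 in higher ones. They may rest on the same libraries, so they are no independent evidence.

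The 10 kb profiles gave whole ends the same direction as the 20 kb scores in 15 of 19. The exceptions were chromosomes 1, 13, 14 and 18, none of which was called. On chromosome 18 the 10 kb profiles were higher in knock-out by 0.00439, where the 20 kb scores differed by -0.0213.

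Boundaries, defined as local minima at least 0.2 deep in the mean profile of all 4 libraries, numbered 163 in the ends. Their density was 0.900 per scored Mb, against 0.811 in the rest. Within signs it was 1.03 against 1.022 per Mb for positive bins and 0.685 against 0.615 for negative bins. Mean depth in the ends was 0.448 and 0.436 in wildtype, against 0.410 and 0.444 in knock-out. Knock-out replicate 2 lay between the wildtype libraries, the two-sided exact permutation p was 0.667, and without knock-out replicate 1 the difference of -0.0149 turned to 0.00176. With each library divided by its genome-wide SD the difference was -0.0840 SD units, a unit unlike that of -0.0149. The genotypes then no longer overlapped, at an exact permutation p of 0.33. Limma called 0 of these 163 depths, against 1.73% of 1905 boundaries called in the genome, 0.42% deeper and 1.31% shallower in knock-out. An unadjusted p below 0.05 in limma was found for 25 of the 163, against 298 of 1692 in the rest. Depth was lower in knock-out at 52.1% of boundaries in the ends and at 62.3% in the rest.

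Averaged over autosomes, scores spread slightly more widely along the ends in knock-out, though not in every end. The SD of scores within an end, averaged over autosomes, was 0.386 and 0.387 in wildtype, against 0.393 and 0.407 in knock-out. The difference of 0.0131 had an exact permutation p of 0.33, two-sided, and it was 0.00633 without knock-out replicate 2. For ends of 5 Mb it was 0.00563, with overlapping genotypes. Both knock-out libraries lay above both wildtype libraries in 10 of 19 ends, against 16 of 19 rests. The knock-out mean was the higher one in 13 ends and 19 rests. In the rest of the chromosomes the SD was 0.433 ± 0.00430 in wildtype, against 0.455 ± 0.00849 in knock-out (SD, n = 2). After each library was divided by its genome-wide SD, the difference in the ends was -0.0161 SD units, so the direction depends on that scaling.

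The eigenvector came as 1 profile per genotype, so its differences have no replicate check. From 10 Mb before the last scored insulation bin to the last eigenvector bin of a chromosome, 979 bins of 200 kb were counted. Some of them end past the last scored bin, among them a chromosome 8 bin that changed sign. In wildtype 606 were positive, and in knock-out 596. The sign differed in 30 bins (3.06%), against 2.06% of 10691 bins in the rest. Of these 30, 20 turned negative in knock-out and 10 turned positive. Chromosome 12 had the most, with 5, and chromosomes 7 and 16 had 0. After division by the SD of each chromosome and genotype, the mean was 0.890 in wildtype, against 0.852 in knock-out, for positive end bins, and -0.871 against -0.856 for negative ones.

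Among bins that changed sign, the largest changes in SD units were a gain of 0.494 on chromosome 13 from 109800001 to 110000000 and a gain of 0.362 on chromosome 18 from 82200001 to 82400000. In the chromosome 18 bin 10 of 10 insulation bins were called higher, and it is part of the rising region named above. In the chromosome 13 bin 5 of 10 were called higher. The next 3 lay on chromosome 6, from 148600001, 148200001 and 142200001, and turned negative by -0.308, -0.307 and -0.274. No insulation bin was called in those 3.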

How the data were processed

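Insulation scores of 4 Hi-C libraries in 20 kb bins, and 1 insulation profile (10 kb) and 1 compartment eigenvector (200 kb) per genotype, are each treated as a score deposited by the authors, per the file headers. The submitters' processing notes name the build mm9. Not given in the sources used here were the aligner, filters, balancing, insulation window, log base and pooling. Groups came from the genotype label, and replicate numbers follow accession order. In both genotypes the library numbered 2 carries the title suffix T1, whose meaning is not given, so the numbers were not used as pairs in the main fits.

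Scores were fitted with limma 3.58.1 in R 4.3.3 (eBayes with trend, genotype as the only term, Benjamini-Hochberg at 0.05) over all 117252 bins scored in all 4 libraries. Further fits used 257 windows of 10 Mb with at least 100 scored bins, 509 windows by sign with at least 25, and 1905 boundary depths. The fit was tested on simulated data. Bins took the sign of the wildtype eigenvector of their 200 kb bin, and 17 end bins had none. Boundaries were minima over 10 bins on each side. Single values used exact permutation of libraries, in Python 3.11.15. Alternatives left out each library, scaled libraries by their SD, took off a running mean, changed the end's length, pooled or reweighted bins and added the title suffix as a term. Named were the 3 ends with the highest and the 3 with the lowest difference, 5 regions per direction and 5 sign changes. Other genes and ends were named after their values were seen. The members, lists and tests were chosen with earlier results of these data known. Gene order came from RefSeq on GRCm38.p6. No mm9 genome was used, so no sequence is shown.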

Additional observations from a re-analysis of the deposited data

How the results depend on the processing

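The share of end bins called higher (16.9%) ran from 5.50% to 18.8% and that called lower (8.28%) from 2.19% to 9.53% when 1 library was left out. After subtraction of the running mean both were 0%, with 1624 of 9054 end bins at an unadjusted p below 0.05 in limma. The 10 called end windows ran from 3 to 12, and the 14 called against the same-sign rest from 4 to 10. Where a genotype had 1 library left, it was assumed to vary like the other. With the title suffix T1 as a term, as a replicate block, the shares were 16.1% and 8.18%, with 9 windows and 17 windows against the rest, so it changed no count by over 1.5 times. What the suffix means is not given. The end minus rest difference of positive bins was 0.0159 with bins pooled over autosomes. That of negative bins was 0.0186 without the last 1 Mb, 0.0203 for an end of 20 Mb and -0.00821 with the rest reweighted over eigenvector quintiles. With each library divided by its SD, boundary depth differed by -0.0840 and the SD across end bins by -0.0161, both in SD units. After subtraction of the running mean the latter was -0.00182 in score units. The causes were not tested. Boundary depth ran from -0.0316 to 0.00176 with 1 library left out. Other settings stayed within 1 SD of the replicates or within 1.5 times the count. However, scaling by the SD ended the separation of the genotypes in the end minus rest differences (0.00510 and 0.0101 in SD units). Unknown depth and 2 libraries per genotype limit all tests.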
